A study of Homo sapiens with 108 samples.

Results

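In 461 human genes, reads collected at the 3′ end of mRNA fell into 2 or more separate well-covered 3′ UTR intervals of the same gene. The intervals were chosen by their reads in the non-targeting (NT) arm. An interval was kept with at least 2000 reads summed over the 12 NT libraries and under 5% of them multimapped, and a gene was kept with at least 2 such intervals. This left 1091 of the 69079 intervals in the count tables, in 461 of 19761 genes. Another 6889 genes held a single interval of that depth. All libraries came from HEK293T, a transformed human embryonic kidney line, transduced by lentivirus with a short hairpin RNA. The hairpin was NT or aimed at 1 of 8 zinc finger proteins, namely MAZ, CNOT4 or BRCA1, at ZNF706, ZMAT5 or ZMAT3, or at PHF7 or ZFP36L1. Every group, NT included, carried a hairpin, went through puromycin selection and was grown with 10 µM 4-thiouridine (4SU) for 24 h, with new medium each 8 h, and was then moved to 1 mM uridine. Cells were lysed at 0, 2, 4 or 8 h of this chase. The 9 arms, 4 chase times and 3 biological replicates make 36 groups, each with 3 libraries.

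Many genes end their mRNAs at more than 1 place. A cleavage and polyadenylation complex reads a signal hexamer, most often AAUAAA, and cuts a short way downstream. Using a nearer signal in the same last exon shortens the 3′ UTR, and using a signal inside an intron or an earlier terminal exon also changes the protein's C terminus, so that 1 gene makes mRNAs that can be read by different RNA-binding proteins and microRNAs. QuantSeq primes cDNA on the poly(A) tail with oligo(dT), so its reads pile up at mRNA ends, but the primer can also land on a run of A inside a transcript. In SLAM-seq, labelled RNA carries 4SU, which is read as C after alkylation, so the T>C rate of an interval measures how much of its RNA was made during the labelling, and its fall over the chase measures loss of that RNA.

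For each gene the most proximal and the most distal chosen interval by strand were paired. In 119 genes both intervals ended within 25 bases of an annotated transcript end, and in 75 of these no annotated transcript held both, as with alternative last exons. In the other 44 a transcript held both. In 257 genes the proximal interval lay at least 50% in annotated coding sequence and the distal interval did not. The distal interval was at an mRNA end or, as in MACROH2A1, MTDH and UQCRB, over 25 bases from any annotated end. Both intervals were coding in 26 genes, and 59 pairs were of other make-up. Of the 1091 intervals, 557 lay at mRNA ends and 448 in coding exons. A coding interval lay 0 to 8437 spliced bases, median 192, from the nearest end among the protein-coding transcripts that overlap it. Short annotated transcripts enter this distance, so it is not the distance to the gene's distal mRNA end. Pairs of 2 mRNA ends had a median gap of 7540 bases, with median lengths of 870 bases proximally and 1233 bases distally. Pairs with an upstream coding exon had a median gap of 2574 bases, and their proximal interval had a median length of 130 bases.

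Signal hexamers differed between these kinds. No sequence entered the choice of intervals, but the kinds were set by annotated transcript ends and coding sequence. The difference is therefore a description and no independent test. AATAAA or ATTAAA, on the transcript strand, was found in the last 50 bases of 76.3% of the mRNA-end intervals, 9.60% of the coding intervals, 81.7% of the intervals in genes with a single one, and 28.0% of all intervals. Windows of 20 bases with at least 14 A, searched to 20 bases past the interval, were found in 43.8% of mRNA-end intervals and 12.1% of coding intervals. The mRNA-end intervals were longer, with a median of 804 bases against 130.5, and a longer interval has more windows. The shares are not corrected for length. The hexamer is shown for AGAP3, HAPSTR1, PHF10 and RBM4, in which label was lost at different rates from the 2 ends, and for CSNK1E and MSL1, in which reads moved toward the proximal end in the MAZ arm. Each line gives 30 bases, 5′ to 3′ on the transcript strand, with the hexamer in capitals, and coordinates are hg38.
AGAP3 proximal, chr7:151123607-151123636, plus strand: gccgtgtgtaagAATAAAcccgttggaata
AGAP3 distal, chr7:151144401-151144430, plus strand: gtatgatgagccAATAAAccagactgtgtg
HAPSTR1 proximal, chr16:9113144-9113173, plus strand: attggtttgtaaAATAAAatttgggctgtc
HAPSTR1 distal, chr16:9121604-9121633, plus strand: aaaacatagaaaAATAAAttaaaaaatgtg
PHF10 proximal, chr6:169707038-169707067, minus strand: tgactttttttaAATAAAtaagccaaaaat
PHF10 distal, chr6:169703909-169703938, minus strand: tattttcatgccAATAAAagattttttttg
RBM4 proximal, chr11:66641156-66641185, plus strand: aaaataataaaaAATAAAaaaagccttatt
RBM4 distal, chr11:66646436-66646465, plus strand: tctttccggtgaAATAAAtggtttttcaac
CSNK1E proximal, chr22:38296208-38296237, minus strand: ttttctatgggcAATAAAggccaagagagc
CSNK1E distal, chr22:38290697-38290726, minus strand: ttaatttgaagtAATAAAgtagaaaagata
MSL1 proximal, chr17:40130263-40130292, plus strand: ttcatatatttaAATAAAatggtctacaaa
MSL1 distal, chr17:40136872-40136901, plus strand: atccattttctcAATAAAaaagaataacac

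Coding intervals with a window rich in A are shown for NKTR, PSMD1 and NKAPD1, whose ratio of distal to proximal reads was lower in the CNOT4 and ZFP36L1 arms. In these 20-base windows the capitals mark A.
NKTR proximal, chr3:42636986-42637005, plus strand: AAAAAAcgcAgAAAAgAAAA
PSMD1 proximal, chr2:231163706-231163725, plus strand: AAAAgAAAAAgAAAAggAAA
NKAPD1 proximal, chr11:112082563-112082582, plus strand: AcAAAAAAAAgcAgAAAAAA

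Most genes held 2 chosen intervals (345 genes), and 83 held 3, 20 held 4, 8 held 5, 3 held 6 and 2 held 7. RACK1, a scaffold protein of the small ribosomal subunit, and RBM25, a splicing regulator, held 7 each. In RACK1 the last interval, at the mRNA end, took 29.7% of the NT reads over its 7 intervals, and the preceding 6 lay in successive coding exons. In RBM25 the mRNA-end interval took 43.7%. CCAR1, a cell cycle and apoptosis regulator, held 6, with 34.2% in the last. At the threshold, the intervals just inside belonged to MCM7, DECR1 and DDX39A, with 2000, 2008 and 2010 NT reads, and those just outside to ASRGL1, DNAJC7 and NPC2, with 1999, 1996 and 1994.

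Depth in 3′ UTR intervals ran from 63659 to 3.08e+07 reads per library, median 1.49e+07. The libraries of PHF7 8 h replicate 3 (63659 reads) and CNOT4 2 h replicate 3 (1781724 reads) were shallow. Covered T positions per read over the chosen intervals had medians of 27.4 in CNOT4 and 27.6 in ZFP36L1 against 33.1 in the other 7 arms. The ranges were 25.8 to 32.1 and 24.3 to 30.4 against 32.0 to 34.0. Over all intervals the medians of multimapped reads were 9.87% and 10.8% against 6.81%. Their ranges were 5.82% to 11.9% and 9.21% to 12.4% against 6.22% to 7.37%. On both measures ZFP36L1 lay apart from the other 7 arms, and the range of CNOT4 overlapped theirs. Over pairs with an upstream coding exon, BRCA1 2 h replicate 2, the 3 BRCA1 libraries of 4 h and ZNF706 4 h replicate 3 also had high median distal read shares, at 88.6%, at 88.7% to 94.0% and at 92.3%, against 82.1% to 86.3% in NT. The targeted mRNA was lower in the MAZ, ZMAT3, ZMAT5 and ZNF706 arms by edgeR. It was not called in BRCA1 (log2 -0.90), CNOT4 (-0.04) or PHF7 (-2.07). PHF7 mRNA was near the floor already in NT, with a median of 0.46 CPM. ZFP36L1 mRNA was higher in the libraries labelled ZFP36L1 (log2 0.80, adjusted p = 0.00204 by edgeR). VIM was found in every library, KRT18 in 106, KRT8 in 105 and PAX2 in 46. Of the markers of other cell types, HBB was at 0 throughout, PTPRC was found in 6, CD3E in 9, ALB in 13 and COL1A1 in 107 libraries (median 14.9 CPM). In bulk RNA, fewer cells making an mRNA and less of it per cell cannot be told apart.

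The distal interval held more NT reads than the proximal one in 388 of 461 pairs. This was so in 75 of the 119 pairs of 2 mRNA ends and in 241 of the 257 pairs with an upstream coding exon. Since NT reads chose the intervals, these counts are a description. The distal share is the distal reads over the reads of both intervals. In NT its median over pairs of 2 mRNA ends was 61.9%, and for the upstream-coding pairs it was 83.8%. The replicate spread of a pair's log2 ratio of distal to proximal reads was far wider than counting error: the median SD between replicates was 1.02 in NT, 1.56 in BRCA1 and 0.35 in PHF7, where counting alone gives 0.125, 0.210 and 0.0698.

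Label left the 2 intervals of some genes at different rates. In 1 edgeR fit over the 96 knockdown libraries, none of which chose the intervals, the loss of label per hour differed between distal and proximal interval in 57 of 456 pairs at an adjusted p under 0.05. Label was lost faster from the distal interval in 30 and more slowly in 27. Over all 2783 tested pairs of intervals in the tables, 4.64% were faster and 4.56% slower distally. Pairs of 2 mRNA ends carried most of the calls, with 24 faster and 12 slower of 119, or 30.3%. Among pairs with an upstream coding exon 4 were faster and 8 slower of 256, or 4.69%, and 1 of 25 pairs with both intervals coding was called. This fit was added after the fits within single arms had been seen. Log2 ratios of label summed over libraries, from the same conversions, ran the same way in 57 of the 57. The 30 faster pairs had a median of -0.26 by the fit and -0.24 in the sums. The 27 slower ones had 0.26 by the fit and 0.13 in the sums. The fit called 12.5% of the member pairs, and 5.71% to 6.80% with 1 replicate number left out.

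AGAP3, a GTPase-activating protein for Arf proteins, showed the pattern clearly. Its proximal end interval lay 20303 bases upstream of the distal one on chromosome 7, and no annotated transcript held both. At 0 h the proximal T>C rate ran from 0.00976% to 2.99% of covered T positions over the knockdown libraries, median 1.48%, and the distal rate from 1.31% to 4.62%, median 2.64%. At 8 h the proximal rate had a median of 1.09%, from 0.174% to 2.00%. The distal rate fell to a median of 0.156%, from 0 to 0.989%. The distal end thus began with the higher label and ended with the lower, and the ranges of the ends overlapped at both times. The fitted difference in loss was -0.46 log2 per hour (SE 0.057, adjusted p = 2.28e-09 by edgeR). In NT the proximal rate was 0.916% ± 0.445 at 0 h and 0.839% ± 0.593 at 8 h, and the distal rate went from 2.10% ± 0.584 to 0.256% ± 0.0924 (SD, n = 3).

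LARP6, a La-related RNA-binding protein known for binding collagen mRNAs, had 2 alternative ends 19373 bases apart on chromosome 15. Its proximal label went from a median of 1.93% at 0 h to 1.29% at 8 h, and its distal label from 2.67% to 0.126%. The difference in loss was -0.54 log2 per hour (SE 0.068, adjusted p = 2.28e-09). In NT at 8 h all 3 libraries were at 0 distally, where the proximal rates were 0.635%, 1.13% and 0.821%. HAPSTR1, a partner of the ubiquitin ligase HUWE1 in stress responses, went from 2.08% to 0.504% proximally and from 2.89% to 0.107% distally. EIF4E2, the cap-binding protein 4EHP that holds back translation, went from 2.17% to 1.37% proximally and from 1.98% to 0.236% distally. ANKHD1, an ankyrin-repeat protein with a KH domain, and UNK, an RNA-binding zinc finger protein, had distal medians of 0.106% and 0.0443% at 8 h, against proximal medians of 1.33% and 0.881%. TROAP, a spindle-associated protein, and ATP2A2, the calcium pump of the endoplasmic reticulum, complete the 8 pairs with the smallest p in this direction. ATP2A2 was no longer called without replicate 2. Its proximal interval was neither coding nor at an annotated mRNA end, and a transcript held both of its intervals.

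In other genes the proximal interval lost label faster. In PHF10, RBM4 and ARID4B an interval shares bases with an interval of another gene, so its label may not be of that gene alone, and so it is in EIF3M, EIF4A1, ASPH, MARS1, SRSF9, TRMT112, ZNRD2, DNAJC7 and ENSG00000259522, named with other results. PHF10, a subunit of the PBAF chromatin remodeller, had ends 3023 bases apart on chromosome 6. Its proximal label ran from 1.22% to 5.11%, median 2.81%, at 0 h and from 0.00857% to 0.688%, median 0.265%, at 8 h. Its distal label had a median of 2.17% at 0 h and 0.916% at 8 h, from 0.127% to 2.26%. The proximal end was thus the more labelled at the start and the less labelled at the end, with overlapping ranges, and the difference in loss was 0.30 log2 per hour (adjusted p = 7.87e-09 by edgeR). RBM4, a splicing regulator, had ends 4835 bases apart on chromosome 11, with near equal medians at 0 h, 2.48% proximally and 2.52% distally, and 0.0702% against 0.340% at 8 h. ARID4B, of the SIN3 histone deacetylase complex, went to 0.120% proximally and 0.432% distally. HSPA14, a ribosome-associated chaperone, went from 2.56% to 0.0302% proximally and from 2.13% to 0.673% distally. In NT all 3 libraries of 8 h were at 0 in the proximal interval of HSPA14. RPL26, UBE3D, HM13 and DNTTIP2 were the others named in this direction. The proximal interval of DNTTIP2 is coding, and that of HSPA14 is neither coding nor at an annotated mRNA end. The proximal intervals of UBE3D, RPL26, HM13 and RBM4 have windows with 20, 19, 18 and 17 A in 20 bases, whose part was not tested. The window of UBE3D runs past the end of its interval. In RPL26, a ribosomal protein of the large subunit, the proximal interval is an alternative mRNA end and the distal one is coding. Its label was 0.00991% proximally and 1.52% distally at 8 h.

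**Figure D1:**
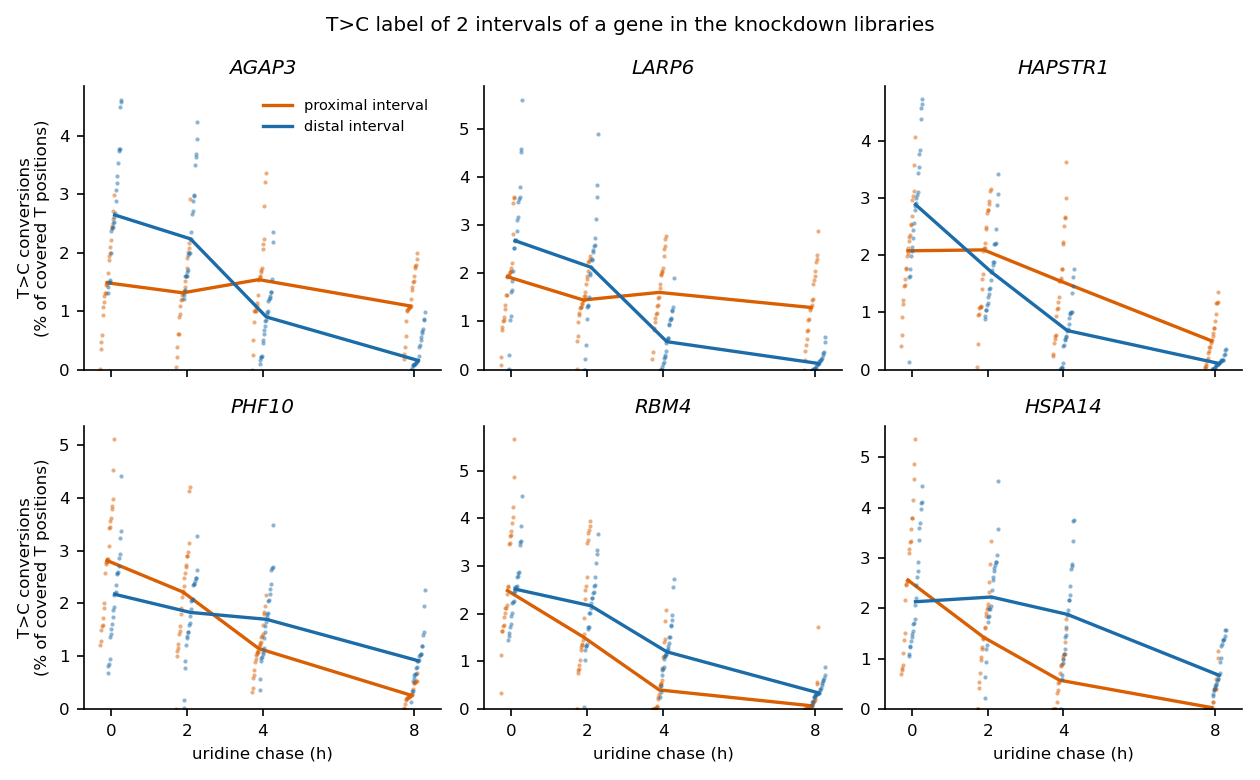
T>C conversions as a percent of covered T positions (y axis) against hours of chase (x axis) in the proximal and distal interval of AGAP3, LARP6, HAPSTR1, PHF10, RBM4 and HSPA14, with a point for each knockdown library and lines through the medians. At 8 h the distal median lies below the proximal one in AGAP3 (0.156% against 1.09%), LARP6 and HAPSTR1 and above it in PHF10 (0.916% against 0.265%), RBM4 and HSPA14.

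The 24 pairs of mRNA ends with faster distal loss had other features that were not used in the choice. In 20 of them no annotated transcript held both ends (75 of 119 among the whole class), and the distal interval was the longer in 19 (74 of 119), with median lengths of 817.5 and 1804.5 bases. In the 12 with slower distal loss the distal interval was the longer in 5, with median lengths of 1907 bases proximally and 448 bases distally. These are counts of annotated features, with no test. The pairs SIN3B, ING3 and KMT5B, which code for a corepressor scaffold, a subunit of a histone acetyltransferase complex and a histone methyltransferase, were also among the faster distal ones (-0.41, -0.35 and -0.33 log2 per hour).

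Single arms gave few calls. In ZFP36L1, where 2.63% of all pairs were called, label loss differed in 16 of 352, of which 12 were faster distally, among them AGAP3, EIF4E2, HAPSTR1, LARP6, SIN3B, TROAP and UNK, and 4 were slower, namely ARID4B, HM13, HSPA14 and PHF10. HAPSTR1 and ING3 were called in MAZ (2 of 456, background 0.298%), HAPSTR1 in PHF7 (1 of 455, 0.382%) and LARP6 in ZMAT3 (1 of 455, 0.0762%). In BRCA1, CNOT4, ZMAT5 and ZNF706 no pair was called, as in all pairs tested there (0), although 51, 14, 34 and 36 members had an unadjusted p under 0.05. In NT, edgeR called 0 of 453 for label loss and 0 of 453 for label at 0 h (backgrounds 0 and 0), with 44 and 46 at an unadjusted p under 0.05. Limma and a fit on T>C reads called 0 there too. The fitted difference for AGAP3 was below 0 in each of the 8 arms, from -0.83 in CNOT4 to -0.25 in PHF7. For PHF10 it was above 0 in each of the 8, from 0.05 in CNOT4 to 0.40 in BRCA1, and for LARP6 it was below 0 in each but BRCA1 (0.29, SE 0.98). AGAP3, PHF10 and LARP6 were named by the fit over these same knockdown libraries, so like signs in the arms follow in part from that choice.

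Summed over the 119 pairs of 2 mRNA ends, label tilted from the distal to the proximal end as the chase went on. The ratio of distal to proximal T>C rate was above 1 in 27 of 27 libraries at 0 h, 22 of 26 at 2 h, 0 of 27 at 4 h and 0 of 26 at 8 h, with medians of 1.11, 1.05, 0.923 and 0.778, the 2 shallow libraries left out. These libraries span the 9 arms. Part of this rested on a few highly covered pairs. Without the 5 most covered, SFPQ, RPS29, RPS6, C1orf43 and RPL34, the ratio was above 1 in 12 of 27 libraries at 0 h (median 0.990) and below 1 in 24 of 26 at 8 h (median 0.866). Pairs that no transcript joins went from 1.2 to 0.748, and pairs joined by a transcript from 0.993 to 0.692, and at 8 h both were below 1 in 26 of 26 libraries. For pairs with an upstream coding exon the summed ratio stayed above 1, in 23 of 27 libraries at 0 h and 26 of 26 at 8 h, with medians of 1.15, 1.14, 1.21 and 1.26. Taken pair by pair, 56.0% to 66.9% of pairs of mRNA ends had a lower ratio at 8 h than at 0 h, depending on the arm, against 40.4% to 57.4% of pairs with an upstream coding exon.

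**Figure D2:**
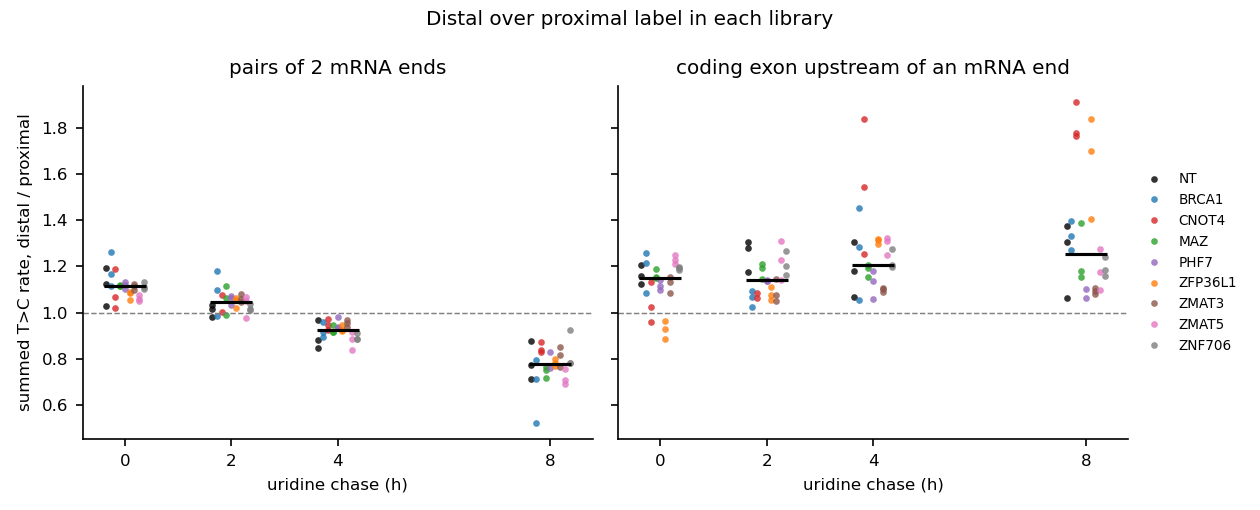
Ratio of summed distal to summed proximal T>C rate (y axis) against hours of chase (x axis) for pairs of 2 mRNA ends (left) and pairs with an upstream coding exon (right), 1 point per library coloured by arm, black bars at the medians, and the 2 shallow libraries left out. On the left the medians go from 1.11 at 0 h to 0.778 at 8 h, and on the right from 1.15 to 1.26.

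At 0 h, before the chase, the distal interval carried the higher label more often. In the fit over the 8 knockdowns label was higher distally in 224 and lower in 20 of 456 pairs, where 64.2% of all pairs tested were higher and 6.9% lower, so the members' share of higher calls was below the background. The fitted sizes exceeded those in the summed label: the 224 had a median of 1.28 by the fit and 0.29 by ratios of sums, and 197 of them ran the same way in the sums. The 20 had medians of -0.94 and -0.37. Among the 8 pairs with the smallest p, MACROH2A1, a histone variant, was higher distally by the fit (1.75) and lower in the sums (-0.21). CHTOP, an mRNA export factor, was higher distally in both (3.99 and 1.01), with a median of 0.529% proximally and 2.84% distally. DKC1, EIF4A1, ACTG1, RPL30, HAX1 and AGAP3 make up the rest, with 0.40 to 0.81 in the sums. In the other direction ASPH, RRP36, PHF10, BRWD1, ANKRD10 and the unnamed gene ENSG00000259522 were lower distally by the fit and in the sums, at -0.34 to -0.84, and ZNRD2 was lower by the fit but not in the sums (0.15). Within single arms, 7 of 446 pairs differed at 0 h in BRCA1 (background 1.88%), 1 of 456 in MAZ (RPL37A, 0.81%), 2 of 455 in ZMAT3 (RPL37A and SRSF7, 0.228%) and 1 of 451 in ZMAT5 (DNAJC7, 1.2%). CNOT4, PHF7 and ZFP36L1 had 0, with backgrounds of 0, and ZNF706 had 0 where 0.229% of all pairs were called. Their members with an unadjusted p under 0.05 numbered 38, 23, 41 and 15. RPL37A, of the large ribosomal subunit, had 1.2%, 1.24% and 1.16% proximally and 5.19%, 4.39% and 3.36% distally in the 3 MAZ libraries of 0 h. SRSF7 ran the other way in ZMAT3, with 8.16%, 7.93% and 10.8% proximally and 3.28%, 2.59% and 3.70% distally. In both pairs the values of the proximal and distal interval did not overlap.

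Over the chase 1 pair passed the test for a change in its reads. In NT, edgeR called 0 of 461 pairs between 0 and 8 h (background 0), with 5 at an unadjusted p under 0.05, DESeq2 called 0.434% and limma 0. In the fit over the 8 knockdowns 1 pair was called (background 0.0348%). This was ZC3HAV1, the antiviral zinc finger protein ZAP, whose 2 alternative ends make its short and long isoforms. Its distal share ran from 47.7% to 88.2% at 0 h, median 73.9%, and from 73.5% to 96.4% at 8 h, median 87.4%, with medians of 77.4% and 80.7% between. The ranges overlapped. The distal to proximal ratio rose by 1.22 on the log2 scale (SE 0.240, adjusted p = 0.00606), and the call was lost without replicate 1 or without replicate 2. In NT the 3 libraries had medians of 79.1% at 0 h and 91.9% at 8 h. Over all pairs of 2 mRNA ends the median distal share per library was 57.5%, 59.2%, 62.7% and 64.0% at 0, 2, 4 and 8 h. In the fit over the knockdowns 89 of these 119 pairs had a higher ratio at 8 h than at 0 h, with a median log2 change of 0.29 (0.23 in the sums), and 30 had an unadjusted p under 0.05, against 220 of all 2877 pairs. In NT the mean share was 57.5% ± 0.817 at 0 h and 66.2% ± 2.07 at 8 h (SD, n = 3).

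Between arms, most upstream-coding pairs had a higher distal to proximal ratio in CNOT4 and ZFP36L1, and 31 and 36 of them a lower one. In CNOT4 the ratio of distal to proximal reads was higher than in NT in 222 pairs and lower in 48 of 461, where 17.5% of all pairs tested were higher and 22.9% lower. In ZFP36L1 it was higher in 251 and lower in 66, against 19.5% and 32.9%. The median log2 difference over the member pairs was 1.72 and 1.46, and over all pairs -0.25 and -0.62. Pairs with an upstream coding exon had medians of 3.60 and 3.11, and pairs of 2 mRNA ends 0.06 and 0.02. Of the latter, 13 were higher and 12 lower in CNOT4, and 24 and 23 in ZFP36L1. The lower median of covered T positions per read and the higher median share of multimapped reads in these 2 arms, given above, moved with this difference. Their part in it was not tested. In the libraries labelled ZFP36L1 the targeted mRNA was not lower. NT reads chose the intervals, so NT is also replaced by the other 7 knockdowns, and then 342 pairs were called in CNOT4 and 337 in ZFP36L1.

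RPS3, a protein of the small ribosomal subunit, shows what happened. Its coding proximal interval lies 465 bases upstream of its mRNA-end interval on chromosome 11. In NT the distal share ran from 36.5% to 55.9%, median 43.8%, and in ZFP36L1 from 94.8% to 98.9%, median 98.1%. No library of ZFP36L1 came within the NT range. The difference was 6.0 on the log2 scale (SE 0.266, adjusted p = 9.25e-14 by edgeR). In CNOT4 the median was 98.0%. EIF3M, a subunit of translation initiation factor 3, went from 56.6% to 80.0%, median 69.7%, in NT to 98.9% to 99.8%, median 99.5%, in ZFP36L1. RPL8, of the large ribosomal subunit, went from 65.0% to 80.4%, median 73.6%, in NT to 98.4% to 100%, median 99.6%, in CNOT4. In RACK1 and NPM3, a histone chaperone of the nucleolus, the proximal interval was at 0 reads in 6 and 11 of the 12 CNOT4 libraries, and the NT distal shares had medians of 92.1% and 86.2%, so their fitted values depend on the prior count. NPM3 is among the pairs of 2 mRNA ends, and its proximal interval is 11 bases long.

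Coding intervals with a window rich in A went the other way in CNOT4 and ZFP36L1. Among the 33 upstream-coding pairs whose proximal interval held such a window, the distal to proximal ratio was higher in 4 and lower in 19 in CNOT4, median -2.04, and higher in 5 and lower in 21 in ZFP36L1, median -1.78. Among the 224 without, 159 were higher and 12 lower in CNOT4, median 4.23, and 166 and 15 in ZFP36L1, median 3.49. Taken interval by interval against NT, the 54 coding intervals with such a window had median log2 differences in CPM of 1.45 and 1.37, and the 394 without had -2.95 and -2.81. Intervals at mRNA ends had 0.07 and -0.02 with a window and -0.15 and -0.17 without. NT reads chose all of these intervals, so their differences from NT are a description. The split by window is given here against NT only. The difference in the ratio of distal to proximal reads also varied with the distance to the nearest transcript end, as defined above. For proximal coding intervals 0 to 100 spliced bases from that end the median in CNOT4 was 2.16. It was 5.22 at 301 to 600 bases and 0.75 past 1200 bases. The remaining arms differed less between pairs with and without a window. Their medians were 0.31 and -0.50 in PHF7, 0.12 and -0.43 in ZMAT3, and 0.07 and -0.26 in ZMAT5. They were 0.15 and -0.16 in ZNF706, 0.06 and -0.12 in MAZ, and -0.03 and 0.27 in BRCA1.

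NKTR, a cyclophilin-related protein of natural killer cells, has its proximal interval in a long coding exon 6138 bases upstream, with the window printed above. Its distal share ran from 25% to 89.7%, median 64.8%, in NT. In CNOT4 it ran from 0% to 12.5%, median 7.77%, and in ZFP36L1 from 5.83% to 13.4%, median 8.97%, so neither arm overlapped NT. The differences were -4.83 (SE 0.749, adjusted p = 1.59e-05) and -4.24 (SE 0.375, adjusted p = 2.88e-09). PSMD1, a subunit of the proteasome's regulatory particle, went from a median of 84.2% in NT to 34.1% in CNOT4 and 32.3% in ZFP36L1. NKAPD1 went from a median of 67.3% in NT to 18.2% in CNOT4 and 16.9% in ZFP36L1, with an interval that shares bases with one of another gene. GPATCH4, a nucleolar protein whose 2 intervals are 452 bases apart, went from 85.4% to 44.6% in ZFP36L1.

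**Figure D3:**
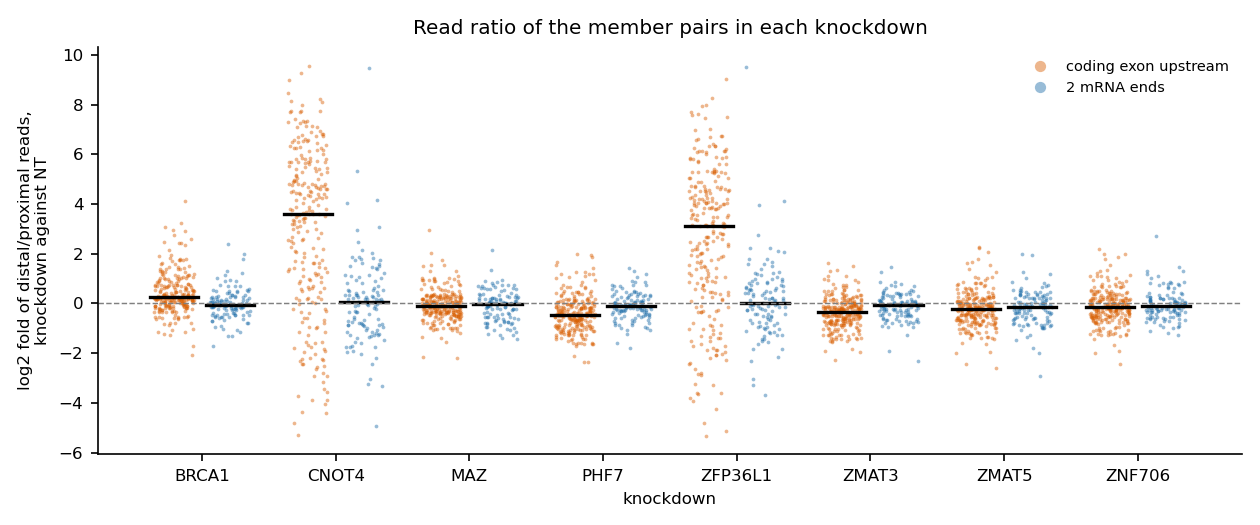
Log2 difference between arm and NT in the ratio of distal to proximal reads (y axis) for each pair of 2 mRNA ends and each pair with an upstream coding exon in the 8 knockdown arms (x axis), with bars at the medians. The upstream-coding pairs have medians of 3.60 in CNOT4 and 3.11 in ZFP36L1, and the pairs of mRNA ends lie at 0.06 and 0.02.

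**Figure D4:**
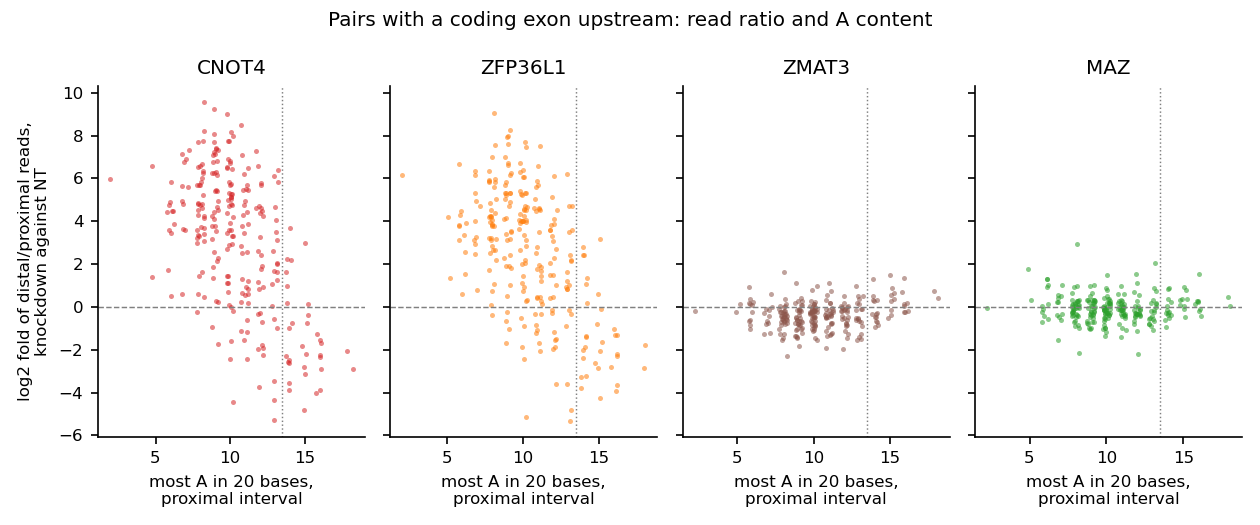
Log2 difference in the ratio of distal to proximal reads (y axis) against the largest number of A in 20 bases of the proximal interval (x axis) for pairs with an upstream coding exon in CNOT4, ZFP36L1, ZMAT3 and MAZ, with a dotted line at 14 A. In CNOT4 the 33 pairs at or past the line have a median of -2.04 and the 224 below it 4.23. Windows were searched to 20 bases past the interval.

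The other arms moved few pairs. In MAZ 4 pairs were higher and 3 lower of 461, where 0.798% and 5.81% of all pairs were. The 3 lower were all pairs of 2 mRNA ends that no transcript joins. CSNK1E, the casein kinase 1 epsilon of the circadian clock and Wnt signalling, had a distal share of 72.9% to 91.2%, median 86.2%, in NT and 66.3% to 78.7%, median 70.5%, in MAZ, with overlapping ranges (log2 -1.22, SE 0.279, adjusted p = 0.0107). MSL1, a scaffold of the complex that acetylates histone H4, had a median of 63.8% in NT, from 43.5% to 84.3%, and 42.6% in MAZ, from 32.8% to 57.4% (-1.42, SE 0.427, adjusted p = 0.0470). C1orf43 went from a median of 87.1% to 81.9% (-0.86, SE 0.246, adjusted p = 0.0390). Against the other 7 knockdowns, CNOT4 and ZFP36L1 among them, these were -0.68, -0.87 and -0.56 and none was called. TACC3, a spindle protein, was higher distally (78.2% in NT and 94.6% in MAZ, medians), as was DNAJB11, a chaperone of the endoplasmic reticulum (34.3% and 50.7%). Only DNAJB11, of the 5 pairs named in MAZ, was also called against the other knockdowns, and its distal interval is 2 bases long. Each of the 5 was lost without at least 1 replicate number.

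NUDT21, the subunit of cleavage factor I that is known to favour distal ends, was lower in MAZ. Its level was 150 to 240 CPM, median 196, in NT and 84.2 to 136 CPM, median 96.5, in MAZ, without overlap (log2 -0.96, adjusted p = 1.02e-08 by edgeR). It was also lower in ZFP36L1 (-0.42, adjusted p = 0.000167) and in ZNF706 (-0.38, adjusted p = 0.0191), where 0 pairs were called for reads. The part of NUDT21 in the read shares was not tested. Of the 25 mRNAs of 3′ end processing factors, 3 were higher and 3 lower in MAZ, where 8.47% of all genes were called. In CNOT4 2 were higher and 7 lower (26.3% of genes) and in ZFP36L1 3 and 10 (39.9%), among them CPSF1, the largest subunit of the cleavage and polyadenylation specificity factor (1.46 and 1.40), and PABPN1, the nuclear poly(A)-binding protein (-0.96 and -1.26). PABPN1 was also lower in PHF7 (-0.76) and ZMAT3 (-0.67). The counts elsewhere were 0 higher and 0 lower in BRCA1 (0.0905%), 0 and 2 in PHF7 (7.45%), 3 and 1 in ZMAT3 (9.85%), 1 and 1 in ZMAT5 (9.74%) and 1 and 2 in ZNF706 (5.32%).

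In PHF7 7 pairs were higher and 13 lower, against 1.82% and 15.6% of all pairs. UQCRB, a subunit of respiratory complex III, had a distal share of 66.4% to 82.8%, median 75.8%, in NT and 23.2% to 58.6%, median 54.1%, in PHF7, without overlap (-1.60, adjusted p = 0.000509 by edgeR). RPS6, of the small ribosomal subunit, was lower, at -1.0. PELP1, a coregulator of steroid receptors, had medians of 80.4% in NT and 91.2% in PHF7, and MTDH, a membrane protein linked to cancer, 86.7% and 92.6%. The proximal coding interval of MTDH has a window with 18 A in 20 bases, within it or reaching past its end, whose part was not tested. In ZMAT3 2 pairs were higher and 13 lower (1.82% and 13.5%). PRRC2C, an RNA-binding protein of stress granules, had a distal share of 47.2% to 61.2%, median 52.6%, in NT and 70.1% to 79.9%, median 75.5%, in ZMAT3, without overlap (1.49, SE 0.290, adjusted p = 0.00233), and it was also called against the other knockdowns (0.96). The window with 15 A in 20 bases counted for the proximal coding interval of PRRC2C runs past the end of that interval, and its part was not tested either. UQCRB, RPL5 and RPS6 were lower in ZMAT3, at -1.27, -1.38 and -0.76. In ZMAT5 0 were higher and 5 lower (0.076% and 0.304%). RPL27 went from 79.3% to 90.0%, median 85.2%, in NT to 69.1% to 78.3%, median 72.4%, and RPL30 from 59.0% to 76.8%, median 70.9%, to 46.9% to 56.7%, median 50.7%, each without overlap (-1.19 and -1.20). The calls named in ZMAT5 were lost against the other knockdowns, as were those of RPL5, RPS6 and UQCRB in ZMAT3, whereas UQCRB, RPS6, PELP1 and MTDH were called in PHF7 against them too. That comparison group holds the CNOT4 and ZFP36L1 libraries, whose ratios stood far from NT. A call kept or lost there is therefore no check on the NT comparison alone. Without the shallow library PHF7 called 7.38% of pairs, in place of 4.34%. Most of these calls did not outlast the loss of a replicate: all but UQCRB in PHF7 and UQCRB and RPL5 in ZMAT3 were lost without at least 1 replicate number. DESeq2 called far more pairs in these arms, 21.7% in MAZ, 39.7% in PHF7, 37.7% in ZMAT3 and 12.6% in ZMAT5. In BRCA1 edgeR called 0 pairs (backgrounds 0 and 0), with 7 at an unadjusted p under 0.05 and 1.08% by DESeq2, and in ZNF706 0 (0 and 0.183%), with 23 and 5.64%.

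**Figure D5:**
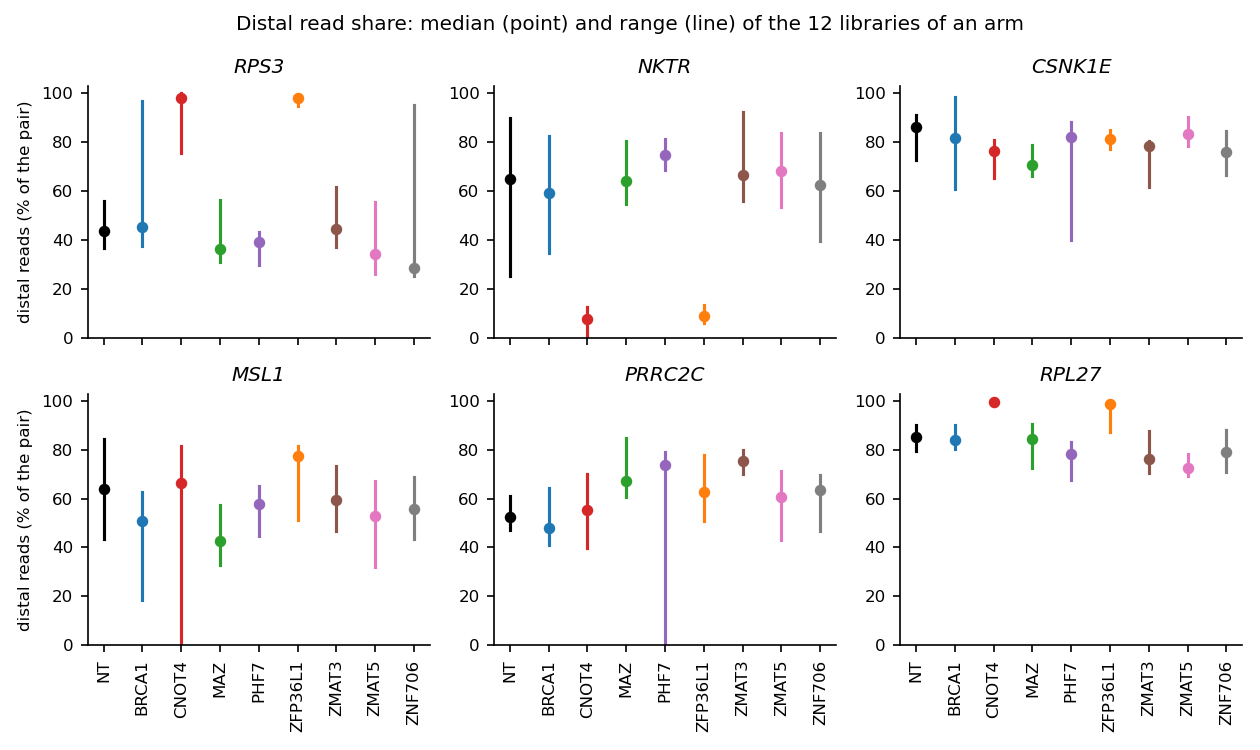
Distal share of the reads of a pair in percent (y axis) in the 9 arms (x axis) for RPS3, NKTR, CSNK1E, MSL1, PRRC2C and RPL27, with points at the median and bars from the lowest to the highest of the 12 libraries. RPS3 lies at medians of 98.0% and 98.1% in CNOT4 and ZFP36L1 against 43.8% in NT, and NKTR at 7.77% and 8.97% against 64.8%.

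Among the pairs with the smallest summed rank of p over the 8 arms were RPL30, RPL5, YWHAB and TRMT112. RPL30, of the large ribosomal subunit, had median distal shares of 98.1% in CNOT4 and 98.0% in ZFP36L1, then 70.9% in NT, 66.4% in MAZ, 64.6% in BRCA1, 64.0% in ZMAT3, 59.7% in PHF7, 57.0% in ZNF706 and 50.7% in ZMAT5. The differences in MAZ, BRCA1, ZMAT3 and ZNF706 from NT were not called. RPL5 had 92.9% in NT, 99.3% in CNOT4 and ZFP36L1 alike to that digit, and 83.3% in ZMAT3. YWHAB, a 14-3-3 protein, and TRMT112, an activator of methyltransferases, had NT medians of 96.3% and 93.8%, and in CNOT4 99.9% and 99.8%.

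Gene lists for 3′ end biology, splicing and translation were set beside these pairs. Of 144 translation mRNAs 22 had pairs, and 15 were higher and 1 lower in CNOT4 (median 4.10), 16 and 4 in ZFP36L1 (3.00), 0 and 5 in PHF7, 0 and 5 in ZMAT3, 0 and 2 in ZMAT5, 1 and 0 in MAZ and 0 and 0 in BRCA1 and ZNF706. The shares of all pairs were given above with each arm, and of all members 222 were higher and 48 lower in CNOT4 and 251 and 66 in ZFP36L1. Of 42 SR and hnRNP splicing regulators 10 had pairs, with 6 higher in CNOT4 (median 3.32) and 5 in ZFP36L1 and none lower there, 1 higher in each of MAZ and ZMAT3, 1 higher and 1 lower in PHF7, and none called in the remaining arms. HNRNPA2B1, which packages nuclear RNA, had medians of 2019 proximal reads per library in NT and 1.5 and 4.5 in these arms, and SRSF9 was higher by 5.80 and 5.14. Of 29 genes known for alternative 3′ ends 4 had pairs, all with an upstream coding exon. CALM2, a calmodulin gene, was higher in CNOT4 (3.44) and ZFP36L1 (1.75). NAP1L1, a histone chaperone, was higher in ZFP36L1 (1.08) and lower in ZMAT3 (-1.53). Of 25 processing factors 4 had pairs. In ZFP36L1 CSTF3 was higher (2.18), and PAPOLA, the poly(A) polymerase, and SSU72, a phosphatase of RNA polymerase II, were lower (-1.03 and -1.53). In CNOT4 0 of the 4 were called by edgeR.

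The ratio of distal to proximal label was also set against NT in each arm. In ZMAT3 it was higher in 6 and lower in 47 pairs, in PHF7 in 3 and 33, in ZFP36L1 in 8 and 29, in MAZ in 2 and 13 and in ZNF706 in 0 and 1, where 10.6%, 8.58%, 13.5%, 2.89% and 0.166% of all pairs were called. In BRCA1 (background 0), CNOT4 (0.261%) and ZMAT5 (0) edgeR called none, with 20, 37 and 35 at an unadjusted p under 0.05. Limma called 23.0% in CNOT4. With 1 replicate number left out, edgeR called 3.08% to 4.17% in ZMAT3, in place of 11.6%. The fits exceeded the summed label in size. Over the 47 lower pairs in ZMAT3 the medians were -3.90 by the fit and -1.02 in the sums, and 42 ran the same way. Over all member pairs there they were -1.17 and -0.03. LARP6, whose distal label was low in NT, was higher distally in MAZ, PHF7, ZFP36L1 and ZMAT3, at 1.54 to 2.20 in the sums. RPS29, of the small ribosomal subunit, was higher in the same 4 arms, at 0.96 to 2.09, and MARS1, the methionyl-tRNA synthetase, was lower in these 4 and ZNF706, at -3.53 to -4.02. SRSF7, a splicing factor, was higher in ZFP36L1 (2.86 by the fit and 2.68 in the sums), and SKIC8, of the complex that feeds RNA to the exosome, was lower in MAZ, PHF7 and ZMAT3. These arms share the 12 NT libraries as control.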

How the data were processed

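SLAM-seq libraries of HEK293T cells were made with QuantSeq and sequenced as single reads of 150 bases. Per the file headers and the study's methods, the authors aligned reads to hg38 with SlamDunk 0.4.3, without splicing and keeping multimapped reads, and deposited, per library and 3′ UTR interval, counts of reads, of T>C conversions and of covered T positions. The strand setting, base-quality minimum and variant mask were not given in the sources used here.

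GENCODE 44 on hg38 named 19501 genes, left 260 identifiers unnamed, and gave each interval its kind. The member intervals, the gene lists and the pooled fits were chosen with earlier results of these data known. In each pair fit both intervals of a gene entered for each library with a library block. EdgeR 4.0.16 (quasi-likelihood) was run on reads, or on conversions with the log of covered T positions as offset, over member pairs and the outermost intervals with at least 500 reads of every other gene. Intervals averaged at least 10 reads per library, and label fits also needed 20 conversions. P-values were adjusted by Benjamini-Hochberg over all pairs. A call needed an adjusted p under 0.05 and, except for label loss, a fold over 1.2. A label value was shown with at least 100 covered T positions. Sums are ratios of conversions and of covered T positions added over libraries. Limma 3.58.1 and DESeq2 1.42.0 were alternatives, and scripts were tested on simulated data.

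Named genes were the 3 smallest p in each direction per arm for reads, the 2 smallest per arm for label, up to 8 (0 h and label loss over the knockdowns) or 5 (NT and within arms) per direction otherwise, the 5 of smallest summed rank over arms, and 3 per list. SIN3B, ING3, KMT5B, RPL37A and SRSF7 in ZMAT3 were given from the calls after their values were seen, and some items that the rule names are not reported here. Same-numbered replicates did not deviate together, neither across chase times of an arm nor across arms. Reads carry no molecular identifiers here, so counting errors are lower bounds.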

Additional observations from a re-analysis of the deposited data

Results flagged for a closer look

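When each arm was set against the other 7 knockdowns in place of NT, edgeR called the ratio of distal to proximal reads in 342 pairs in CNOT4 and 337 in ZFP36L1, in 20 in BRCA1, 13 in PHF7, 7 in ZMAT5, 3 in ZMAT3 and 1 in MAZ, which is DNAJB11. In CNOT4 274 were higher and 68 lower, and in ZFP36L1 274 and 63. In BRCA1 15 were higher and 5 lower, where the fit against NT called 0. No pair was called in ZNF706. Each of these fits shares libraries with the others, since an arm is part of the comparison group of the rest. CNOT4 and ZFP36L1 thus enter the comparison group of every other arm. There the median log2 difference over the members was -0.05 in BRCA1, -0.40 in MAZ and -0.45 in ZNF706. It was -0.78 in PHF7, -0.69 in ZMAT3 and -0.64 in ZMAT5.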

How the results depend on the processing

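Values here are percents of the member pairs called, unless said otherwise, and the cause of a change was not tested. Of 317 recomputed counts over the comparisons, 223 stayed within 1.5 times the reported one and 94 did not. Of 578 recomputed values of named pairs, 482 kept direction and call and 96 kept the direction and lost the call. The reported shares for the read ratio were 58.6% in CNOT4, 68.8% in ZFP36L1, 4.34% in PHF7, 3.25% in ZMAT3, 1.52% in MAZ, 1.08% in ZMAT5 and 0 in BRCA1 and ZNF706. DESeq2 gave 39.7% in PHF7, 37.7% in ZMAT3, 21.7% in MAZ, 12.6% in ZMAT5, 5.64% in ZNF706, 1.08% in BRCA1 and 0.434% over the chase in NT. DiffSpliceDGE, which compares each interval with its gene, gave 20.8% in CNOT4, 42.5% in ZFP36L1, 0.651% in MAZ, 0.434% in PHF7, 1.30% in ZMAT3 and 0.217% in ZMAT5. Against the other knockdowns the shares were 4.34% in BRCA1, 0.217% in MAZ, 2.82% in PHF7 and 0.651% in ZMAT3. A filter of 1 read gave 0.434% in MAZ, 0.868% in PHF7, 1.52% in ZMAT3 and 0 in ZMAT5, and a filter of 50 reads gave 4.34% in ZMAT5. Limma gave 1.95% in ZMAT3 and 0 in ZMAT5. Members with at least 4000 NT reads gave 6.74% in PHF7, 6.18% in ZMAT3 and 2.81% in ZMAT5, and pairs at least 150 bases apart 0.711% in ZMAT5. Without its shallow 8 h replicate 3 library PHF7 gave 7.38%, and without its 4 h replicate 3 library ZNF706 gave 0.217%, the latter an alternative chosen after seeing the data, as were the pooled fits and theirs. Over the chase in the 8 knockdowns (0.217%), leaving out CNOT4 and ZFP36L1 gave 0.434% and leaving out the shallow PHF7 8 h replicate 3 and CNOT4 2 h replicate 3 libraries 0.868%.

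For the label ratio by arm, limma gave 23.0% in CNOT4 (0 reported), 21.4% in ZFP36L1 (8.17%) and 5.26% in MAZ (3.29%). T>C reads gave 5.21% in MAZ and 0.651% in ZNF706 (0.220%). A filter of 50 reads gave 5.92% in MAZ, 13.4% in PHF7 (7.91%) and 0.881% in ZNF706, and a filter of 1 read 0 in ZNF706. Members with at least 4000 NT reads gave 0.568% in MAZ, 2.29% in PHF7, 3.45% in ZFP36L1, 5.68% in ZMAT3 (11.6%) and 0 in ZNF706, where pairs without shared bases also gave 0. Of the factor mRNAs DESeq2 called 7 in PHF7 and 5 in ZMAT5, and a filter of 1 read 4 in ZMAT5, against 2 in each.

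Same-numbered replicates did not deviate together: over 162 same-number pairs of libraries the median correlation of their deviations was 0.00654, from -0.32 to 0.201, against 0.000247 for other numbers, across chase times within an arm, and over 432 between arms at the same chase time it was -0.00456, from -0.269 to 0.273. With the replicate block, the read ratio gave 0.868% in MAZ and 0.434% in ZMAT5, and the label ratio 1.75% in MAZ and 0 in ZNF706. No other count moved by over 1.5 times, and the 57 pairs called for label loss were the same 57, but for label at 0 h over the knockdowns 163 pairs were called in place of 244, with 155 shared. Leaving out each replicate number in turn gave 5.71% to 6.80% for label loss over the 8 knockdowns (12.5%), with 24, 29 and 31 of the 57 pairs remaining. For the read ratio it gave 0 to 0.217% in MAZ, 0.217% to 2.60% in PHF7, 0.434% to 0.651% in ZMAT3, 0 to 0.434% in ZMAT5 and 0 to 0.217% over the chase in the knockdowns. For the label ratio it gave 0.219% to 1.76% in MAZ, 1.32% to 2.20% in PHF7, 1.33% to 2.43% in ZFP36L1, 3.08% to 4.17% in ZMAT3 and 0 in ZNF706. Factor mRNAs called numbered 2 to 4 in MAZ (6), 1 to 3 in PHF7, 1 to 3 in ZMAT3 (4), 1 to 2 in ZMAT5 and 1 to 2 in ZNF706 (3). T>C conversions were far fewer than reads, so a label difference missing the threshold in 1 arm is not shown to be absent.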

Other observations

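In single arms, label at 0 h stood near 0 in 1 interval of several pairs. In BRCA1 the proximal interval of DLD, a subunit of mitochondrial dehydrogenase complexes, was at 0 in all 3 libraries of 0 h, where its distal interval was at 1.79%, 2.14% and 2.19%. In SMARCE1, a subunit of SWI/SNF remodellers, the proximal interval was at 0, 0.0215% and 0 and the distal one at 0.709%, 1.14% and 1.8%. GABARAP, an autophagy protein, had 0.0171% ± 0.00728 proximally and 1.54% ± 0.209 distally, and ETFA, an electron carrier of fatty acid oxidation, 0.0140% ± 0.0243 and 1.56% ± 0.237 (SD, n = 3). HOMER2, a scaffold protein, ran the other way, with 0.719% ± 0.479 proximally and 0.0320% ± 0.0437 distally. In ZMAT5 the proximal interval of DNAJC7, a co-chaperone, had 0, 0 and 0.0134%, and the distal one 1.04%, 1.61% and 1.33%. Each of these pairs was called by edgeR at 0 h in its arm. Label summed over the 8 knockdowns did not show such low values. The log2 ratio of distal to proximal at 0 h was 0.22 in DLD, 0.26 in ETFA and 0.10 in SMARCE1. It was -0.15 in GABARAP, -0.09 in HOMER2 and 0.47 in DNAJC7. In GABARAP, SMARCE1 and DNAJC7 an interval shares bases with one of another gene.

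The share of the 448 coding intervals without a single read had a median of 2.34% per library in NT, 17.4% in CNOT4, 5.02% in BRCA1 and 4.91% in ZFP36L1, 0.335% in ZMAT5 and ZNF706, and 0% in MAZ, PHF7 and ZMAT3. Depth differed with them, and its part was not tested: the median reads per library were 4.53e+06 in CNOT4, 6.16e+06 in ZFP36L1, 8.90e+06 in BRCA1 and 1.02e+07 in NT, and 1.71e+07 to 2.10e+07 in the others. Coding intervals took a median of 20.6% of the reads in the chosen intervals in NT, 19.9% in CNOT4 and 19.4% in ZFP36L1. NT reads chose these intervals, so the few empty ones in NT follow in part from the choice. The shares are a description and no test of an arm against NT.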
